A study of Homo sapiens with 16 samples.

Results

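The 44 collagen genes of a gene count table were followed through 16 RNA-seq libraries of human small cell lung cancer cells. Members were all rows whose symbol has the form of a collagen alpha chain, COL followed by a type number, the letter A and a chain number, and they were 44 of the 56832 rows. In H69 cells collagen transcripts were scarce and led by COL2A1 and COL1A2. In H69M cells they made up a 1.77% ± 0.528 share (SD, n = 2) of all counts in cytoplasmic control RNA, and COL1A1 and COL1A2 carried most of it. With knockdown of EIF6, a single collagen, COL26A1, passed the test in H69M cells in both RNA fractions, and none passed in H69 cells.

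Collagens are secreted proteins whose alpha chains wind around one another into a helix inside the endoplasmic reticulum, after prolines and lysines of the chains have been hydroxylated. Fibrillar collagens build the tensile fibrils of the extracellular matrix, type IV chains build the basement membrane, and FACIT collagens sit on the surface of fibrils. In solid tumours most fibrillar collagen is usually laid down by stromal fibroblasts. EIF6 is a translation initiation factor that binds the large ribosomal subunit, takes part in its maturation and keeps it from joining the small subunit.

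H69 is an established small cell lung cancer line. H69M is labelled with the same tumour type, and no label used here describes how it was derived. Each line was infected with lentivirus to give stable cells with either a non-targeting hairpin (shNTC, genotype WT) or a hairpin against EIF6 (sheIF6, genotype eIF6 knockdown), so the controls carry a hairpin too. All cells grew in RPMI medium with 10% serum. RNA came either from the cytoplasmic lysate or from the polysome fractions of a sucrose gradient, which hold messages loaded with several ribosomes. The 8 groups of line, hairpin and fraction had 2 libraries each, with 36005326 to 87269772 counts a library. Whether the replicates came from separate cultures is not said in the labels, and a p-value here speaks only of how far these libraries scatter, which may be technical. Each hairpin and line is 1 stable population.

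EIF6 itself was checked first. Levels are CPM, counts scaled to a common library size, and the values of a group are given as replicate 1 and then replicate 2. In H69 cytoplasmic RNA EIF6 stood at 116 and 112 CPM in the controls and at 65.0 and 67.7 CPM with sheIF6, and in polysomal RNA at 424 and 389 against 234 and 219.8 CPM. In H69M it stood at 204 and 165 against 161 and 96.3 CPM in the cytoplasm, and at 323 and 202 against 86.3 and 136 CPM on polysomes. The sheIF6 libraries lay below both controls of their group in all 4 comparisons. The fitted log2 changes were -0.78, -0.84, -0.52 and -1.24 in that order, and none passed edgeR's quasi-likelihood test with Benjamini-Hochberg adjustment over 23100 genes (adjusted p = 1, 0.956, 0.547 and 0.204). In H69M polysomal RNA DESeq2 called it (-1.22, adjusted p = 0.0160), and so did edgeR without the 4 H69M libraries numbered 2 (-1.91, adjusted p = 0.0129), a choice made after the data were seen. That choice leaves 1 library in each H69M group, and the spread then comes from the H69 groups alone.

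Some collagen genes lie head to head and share the stretch between their starts, and these stretches are shown because the chains of a type IV pair are compared throughout. RefSeq windows (GRCh38.p14) were found for 32 of the 44 genes. The RefSeq starts of COL4A1 and COL4A2 lie 127 bases apart on chromosome 13, and GENCODE v29 annotates 124 bases of that gap as exon. The 29 bases shown were therefore cut around the CCAAT box nearest the COL4A2 start, in capitals, and hold it by choice. The other stretches were chosen as free of annotated exon, without regard to motifs. The COL4A3 stretch faces COL4A4 on chromosome 2, where the RefSeq starts lie 419 bases apart and the GENCODE v29 starts 112. The COL4A5 stretch faces COL4A6 on the X chromosome, with RefSeq starts 380 bases apart and GENCODE v29 starts 347. Capitals in the COL4A5 stretch mark CCAAT read on either strand (CCAAT or ATTGG). The COL26A1 stretch, upstream of the gene that passed the knockdown test, is shown for comparison and has none of the 3 motifs searched. All 4 are written on the plus strand.
COL4A2, chr13:110307167-110307195: gggccgagctccCCAATttgttggcgctg
COL4A3, chr2:227164454-227164564: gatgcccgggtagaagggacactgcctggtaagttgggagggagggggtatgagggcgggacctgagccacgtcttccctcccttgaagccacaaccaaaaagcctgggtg
COL4A5, chrX:108439588-108439837: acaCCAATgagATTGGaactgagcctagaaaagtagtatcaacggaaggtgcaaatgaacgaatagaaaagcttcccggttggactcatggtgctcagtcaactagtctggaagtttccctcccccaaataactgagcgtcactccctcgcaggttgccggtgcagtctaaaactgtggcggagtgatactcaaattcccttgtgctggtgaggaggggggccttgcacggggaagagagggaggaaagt
COL26A1, chr7:101362625-101362819: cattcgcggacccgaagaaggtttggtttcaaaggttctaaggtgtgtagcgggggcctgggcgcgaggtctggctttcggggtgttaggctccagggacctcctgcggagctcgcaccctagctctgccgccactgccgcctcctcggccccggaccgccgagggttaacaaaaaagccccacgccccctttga

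Over the 250 bases before the start, and on either strand, CCAAT was found in 11 of the 32 collagen genes and in 32% of all 35116 windows. TATAAA was found in 7 of 32 and in 10.7% of windows, and GGGCGG in 21 of 32 and in 42.6%. A collagen gene was counted if any of its windows held the letters, and the 32 genes had 44 windows. The share of all windows counts each window by itself. The figures are therefore unlike, and the gene counts can be raised by genes with several windows. The motifs are letter matches and not shown to be bound sites.

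The lines differed first in how many collagens they expressed. A collagen is called expressed in a group at 1 CPM or more in both libraries. By that rule H69 groups expressed 16 to 18 of the 44 and H69M groups 28 to 31. In all 4 H69 groups 15 were expressed, and in all 4 H69M groups 27. In every group of both lines 12 were expressed: COL16A1, COL18A1, COL1A2, COL21A1, COL2A1, COL4A4, COL4A5, COL4A6, COL5A1, COL7A1, COL8A1 and COL9A2. A further 13 were expressed in all 4 H69M groups and in no H69 group, and COL24A1 and COL4A3 were the reverse. In no group of either line did COL10A1, COL11A2, COL19A1, COL20A1, COL6A5, COL6A6 or COL9A1 reach the level, and COL6A5 had 0 counts in all 16 libraries. The low-count filter of the test kept 41 of the 44, all but COL20A1, COL6A5 and COL9A1.

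**Figure D1:**
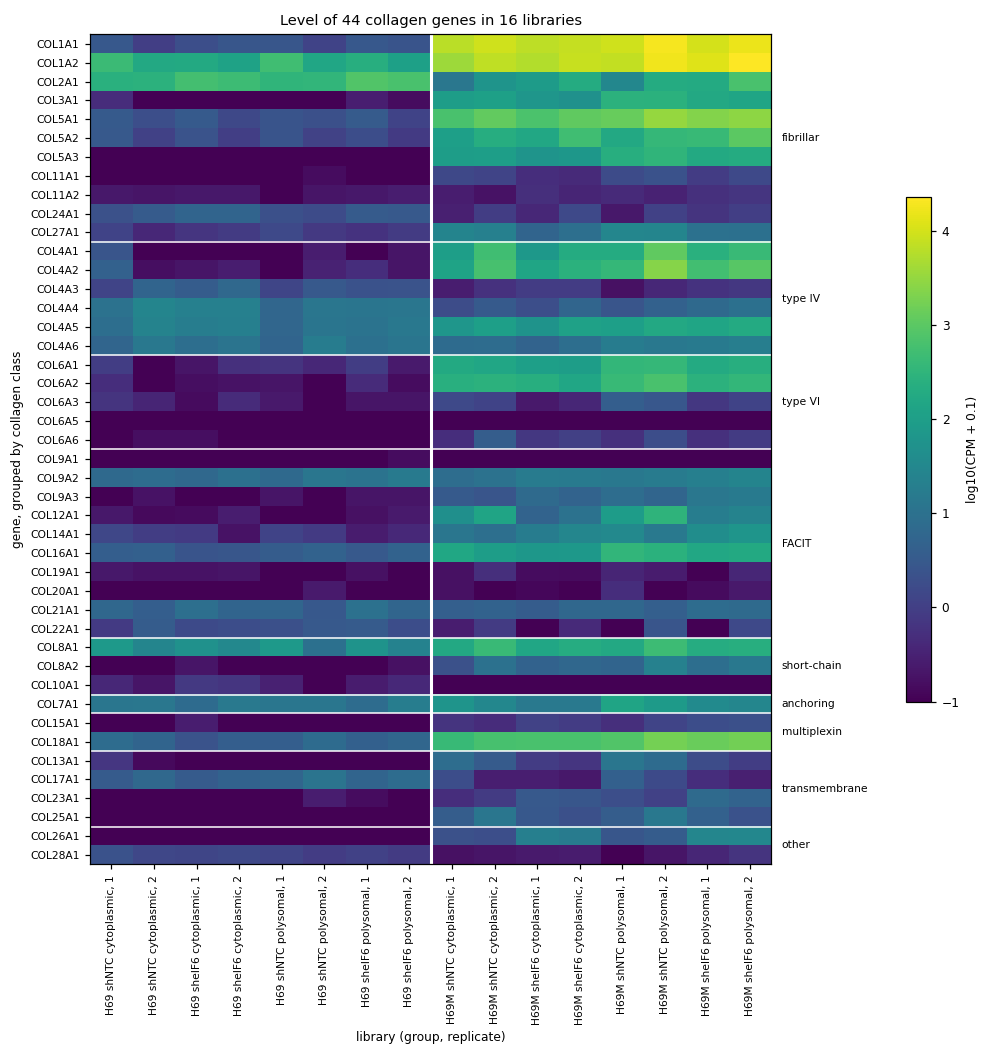
Level of each collagen gene in each of the 16 libraries, as log10(CPM + 0.1) shown by colour, with genes in rows by class and libraries in columns by group. COL1A1, COL5A3, COL6A1, COL6A2 and COL12A1 are among the rows that are bright in H69M and dark in H69, and COL2A1, COL4A3, COL4A4, COL17A1, COL24A1 and COL28A1 are among those with the higher values in H69.

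As a share of all counts, collagens held 0.0853% ± 0.0178 (SD, n = 2) in H69 cytoplasmic controls and 1.77% ± 0.528 in H69M. On polysomes the shares were 0.0712% ± 0.0199 and 3.07% ± 1.46. With sheIF6 they were 0.0967% ± 0.0118 and 1.74% ± 0.476 in the cytoplasm, and 0.0949% ± 0.0103 and 3.39% ± 0.843 on polysomes. Each line kept its range, and no H69 library came near an H69M one. In bulk RNA, more cells with a transcript and more of it per cell cannot be told apart.

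Levels of different genes are compared per kilobase of exon, counting every exon base annotated to a gene. This length can exceed that of the message, so the order of genes and the size of chain ratios depend on the annotation. On that scale the H69 cytoplasmic controls were led by COL2A1, the chain of cartilage fibrils, at 39.2 ± 3.10 CPM per kb and COL1A2 at 28.2 ± 17.9 (SD, n = 2), which do not differ beyond their spread. COL8A1, a short-chain network collagen of vessels and the eye, followed at 5.51 ± 3.72, and COL1A1 was far down at 0.194 CPM per kb. In H69M cytoplasmic controls COL1A1 and COL1A2, the chains of type I collagen, led at 798 ± 225 and 485 ± 212 CPM per kb. COL5A1 came next at 82.2 ± 32.9, then COL18A1 at 60.7 ± 19.9 and COL6A2 at 47.8 ± 3.89. COL8A1, COL6A1, COL5A2, COL4A1 and COL4A2 followed between 31.5 and 19.7 CPM per kb, with SDs as large as 20.4, and they do not differ from one another beyond that spread.

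Among the fibrillar chains COL1A1 set the lines far apart. Its 8 H69 libraries held 0.880 to 2.95 CPM. In H69M it reached 6274 and 9404 CPM in cytoplasmic controls and 9439 and 18955 CPM in polysomal controls, with 6533 and 7653, and 10037 and 15499, in the matching sheIF6 libraries. COL1A2 was expressed in both lines. In H69 it stood at 455 and 173 CPM in cytoplasmic controls, 180.0 and 123 with sheIF6, 508 and 147 in polysomal controls and 225 and 112 with sheIF6. In H69M the same groups held 3736 and 7082, 5406 and 8215, 7425 and 17722, and 12268 and 22613 CPM. In every H69 group the library numbered 1 was the higher for COL1A2, and in every H69M group the library numbered 2.

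COL2A1 ran the other way. In H69 it stood at 246 and 276 CPM in cytoplasmic controls, 566 and 477 with sheIF6, 324 and 327 in polysomal controls and 781 and 643 with sheIF6. In H69M these groups held 13.0 and 59.7, 87.2 and 199, 30.1 and 201, and 185 and 654 CPM. The H69M libraries numbered 2 were 2.29 to 6.68 times those numbered 1, a spread larger than that of any H69 group.

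The type III chain and the type V chains, which help to start and size fibrils with type I collagen, were low in H69, though COL5A1 was above 1 CPM in all 8 libraries there. COL3A1, the type III chain, had 0 to 0.371 CPM there, and in H69M 97.2 and 109 CPM in cytoplasmic controls, 65.8 and 51.2 with sheIF6, 271 and 267 in polysomal controls and 170.4 and 143 with sheIF6. COL5A1 held 1.07 to 3.36 CPM in H69 and, in the same H69M groups, 659.7 and 1179.9, 673 and 1097, 1267 and 3161, and 2255 and 2765 CPM. COL5A2 held 0.731 to 3.06 CPM in H69 and 107 and 218, 165 and 528, 169.6 and 376, and 413 and 994 CPM in H69M. COL5A3 had 0 counts in all 8 H69 libraries. In H69M it stood at 96.5 and 101 CPM in cytoplasmic controls, 59.2 and 69.8 with sheIF6, 228 and 312 in polysomal controls and 181 and 193 with sheIF6. COL27A1 held 0.300 to 1.42 CPM in H69 and 25.9 and 21.2, 5.25 and 8.84, 28.9 and 27.3, and 9.80 and 9.26 CPM in H69M. Its H69M knockdown libraries all lay below its controls. The type XI chains were low, COL11A1 at 2.14 CPM or less and COL11A2 at 0.580 or less, and COL24A1 ran from 1.53 to 5.27 CPM in H69 and from 0.126 to 1.46 in H69M.

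Type IV chains divided by pair. COL4A1 and COL4A2, the common chains of basement membranes, were at or near 0 in H69 apart from 1 library: the cytoplasmic control numbered 1 held 124 of the 124 COL4A1 counts and 225 of the 228 COL4A2 counts of its group. In H69M COL4A1 stood at 100.3 and 525 CPM in cytoplasmic controls, 72.3 and 196 with sheIF6, 199 and 1141 in polysomal controls and 247 and 426 with sheIF6. COL4A2 followed it at 129.7 and 631, 139 and 259, 364 and 2402, and 532 and 921 CPM. Replicate 2 was the higher in all 4 groups for both genes.

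COL4A4, a chain of the kidney and lung type IV network, stood in H69 at 10.1 and 27.4 CPM in cytoplasmic controls, 21.8 and 21.4 with sheIF6, 5.65 and 12.5 in polysomal controls and 11.9 and 12.7 with sheIF6. In H69M it held 1.67 to 9.44 CPM. Its partner COL4A3 ran from 1.17 to 6.34 CPM in H69 and from 0.0757 to 0.798 in H69M. COL4A5 stood in H69 at 8.43 and 24.4, 18.2 and 20.7, 5.81 and 12.0, and 10.9 and 13.6 CPM in the same order of groups, and in H69M at 64.3 and 104, 55.9 and 117, 103 and 169.6, and 137 and 184 CPM. COL4A6 overlapped between the lines, with 5.23 to 17.3 CPM in H69 and 5.03 to 19.5 in H69M. The 3 head-to-head gene pairs, whose start regions are printed above, gave 3 outcomes in the test between the cytoplasmic controls below: COL4A1 and COL4A2 passed as higher in H69M, COL4A3 and COL4A4 as lower, and of the last pair COL4A5 passed as higher and COL4A6 did not pass (log2 -0.37, edgeR adjusted p = 0.640).

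The type VI chains COL6A1 and COL6A2, which form beaded filaments, were at 0.839 and 0.390 CPM or less in H69. In H69M COL6A1 stood at 177 and 149 CPM in cytoplasmic controls, 107 and 95.2 with sheIF6, 343 and 376 in polysomal controls and 191 and 222 with sheIF6. COL6A2 stood at 243 and 272, 224 and 149.8, 396 and 661, and 279 and 345 CPM. COL6A3, the chain that completes the usual type VI molecule, reached no more than 3.94 CPM in any library, and COL6A6 no more than 3.74.

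Among FACIT collagens, COL12A1 and COL16A1 set the lines apart. COL12A1 held 0 to 0.163 CPM in H69 and, in H69M, 45.6 and 131 CPM in cytoplasmic controls, 4.87 and 10.3 with sheIF6, 90.4 and 304 in polysomal controls and 18.7 and 24.7 with sheIF6. COL16A1 held 2.37 to 4.78 CPM in H69 and 152 and 94.2, 67.9 and 70.4, 327 and 261, and 163 and 183 CPM in H69M. COL14A1 held 0.0815 to 1.27 CPM in H69 and 12.8 and 8.75, 17.9 and 27.9, 33.8 and 14.4, and 42.4 and 62.0 CPM in H69M. COL9A2 overlapped between the lines, with 6.32 to 15.5 CPM in H69 and, in H69M, 8.05 and 10.1, 16.5 and 15.9, 13.7 and 16.9, and 20.3 and 26.1 CPM. COL9A3 was near 0 in H69, at 0.105 CPM or less, and at 2.43 to 16.2 in H69M, and COL21A1 overlapped, with 2.82 to 9.85 and 3.55 to 7.64 CPM. COL22A1 reached at most 3.44 CPM, and COL9A1, COL19A1 and COL20A1 at most 0.0487, 0.422 and 0.404 CPM.

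In the remaining classes COL18A1, the multiplexin whose cleaved end is endostatin, was the highest per kilobase in H69M cytoplasmic controls, and COL8A1 in those of H69. It held 2.20 to 7.87 CPM in H69 and, in H69M, 398 and 637 CPM in cytoplasmic controls, 651 and 641 with sheIF6, 808 and 1720.0 in polysomal controls and 1342 and 1657 with sheIF6. Its exons overlap those of SLC19A1 on the other strand by 1401 bases, SLC19A1 had 3411 to 6237 counts a library in H69, and the strand setting of the counting is not given in the sources used here, so the low H69 level of COL18A1 is uncertain. COL8A1 stood in H69 at 76.6 and 27.0, 51.5 and 32.1, 80.6 and 9.26, and 57.2 and 23.1 CPM, and in H69M at 167 and 426, 150.0 and 204, 174 and 467, and 206 and 230.3 CPM. COL8A2 held 0 to 0.103 CPM in H69 and 2.02 to 22.1 in H69M, and COL10A1, the growth plate collagen, at most 0.679 CPM in H69 and 0 in H69M. COL7A1, the anchoring fibril chain of skin, stood in H69 at 12.4 and 13.3, 7.20 and 14.2, 12.4 and 12.5, and 7.80 and 18.4 CPM. In H69M it stood at 58.1 and 30.4 CPM in cytoplasmic controls, 14.6 and 14.2 with sheIF6, 136 and 83.3 in polysomal controls and 35.8 and 28.0 with sheIF6. The transmembrane collagens COL13A1, COL17A1, COL23A1 and COL25A1 reached at most 13.9 CPM, and COL17A1, a hemidesmosome protein, was the only one of them expressed across H69, at 3.40 to 11.7 CPM. COL15A1 and COL28A1 reached at most 1.90 and 2.11 CPM.

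The first comparison the design allows is between the control lines. In cytoplasmic RNA 26 of the 41 tested collagens were higher in H69M and 4 were lower, against 16.2% and 14.1% of all 23100 genes (edgeR, Benjamini-Hochberg adjusted p under 0.05). In polysomal RNA 28 were higher and 2 lower, against 18.4% and 15.6%. The median log2 difference of the tested collagens was 4.91 in the cytoplasm and 6.04 on polysomes, and that of all genes -0.01 and 0.02.

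By class, 8 of 11 fibrillar collagens were higher in each fraction, and COL2A1 was lower in the cytoplasm. Of 6 type IV chains 3 were higher in each fraction, COL4A1, COL4A2 and COL4A5, and 2 were lower in the cytoplasm and 1 on polysomes. Of 4 tested type VI chains 3 and 4 were higher, of 8 tested FACIT chains 4 and 4, of 3 short-chain collagens 1 and 2, of 4 transmembrane collagens 3 and 3, and both multiplexins. COL7A1 was higher in both fractions, as was COL26A1, a secreted matrix protein known from testis and ovary.

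For genes with 0 counts in an H69 group only a lower bound of the gap between means can be given. It is the mean of the 2 H69M libraries over a floor for H69, so it leaves out the spread of H69M. That spread was wide for COL8A2 in the cytoplasm (5.85 ± 5.41 CPM, SD, n = 2) and on polysomes (13.7 ± 11.9 CPM). It was also wide for COL25A1 in the same fractions (8.18 ± 6.37 and 8.82 ± 7.15 CPM) and for COL12A1 on polysomes (197 ± 151 CPM). A single H69M library can lie below the bound. Against the floor of 3 counts over the H69 group, COL5A3 was at least 3331-fold higher in H69M cytoplasmic RNA and at least 7053-fold higher on polysomes. COL25A1 was at least 276-fold and 230.5-fold higher, COL8A2 at least 197.5-fold and 358-fold, and COL26A1 at least 64.9-fold and 80.05-fold. COL3A1 and COL12A1 had 0 counts in H69 polysomal controls alone, and there they were at least 7031-fold and 5151-fold higher. In the cytoplasm the log2 differences were 9.09 (SE 0.848, adjusted p = 4.09e-05) for COL3A1 and 10.08 (SE 1.01, adjusted p = 3.76e-05) for COL12A1. Each SE of a log2 value, here and below, was worked back from the test. It is the size of the log2 value over the square root of the quasi-likelihood F statistic. Where a group is near 0 counts such an SE can be far too small. The COL3A1 value rests on 19 counts in H69 cytoplasmic control 1. Without that library H69 has 0 counts, and the fitted 15.23 then depends on the prior count.

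Of the genes with counts in both lines, COL1A1 differed by 12.00 on the log2 scale (SE 0.811, edgeR adjusted p = 1.11e-06) in the cytoplasm and by 12.93 (SE 0.836, adjusted p = 6.58e-07) on polysomes. COL1A2, its partner chain, differed by less, 4.10 (SE 0.747, adjusted p = 0.00141) and 5.26 (SE 0.790, adjusted p = 0.000376). The other large ones in cytoplasmic RNA were COL6A2 at 10.34 (SE 1.01), COL6A1 at 8.58 (SE 1.13) and COL5A1 at 8.51 (SE 0.783). COL18A1, COL5A2 and COL16A1 differed by 6.30, 6.31 and 4.91. COL4A1 and COL4A2 differed by 8.01 (SE 1.78, adjusted p = 0.00771) and 7.41 (SE 1.65, adjusted p = 0.00648) in the cytoplasm and by 12.84 and 13.53 on polysomes. The sizes for COL4A1, COL4A2, COL6A1 and COL6A2 rest on the few H69 libraries with counts. Without H69 cytoplasmic control 1 the cytoplasmic fits gave 16.83, 12.57, 15.89 and 16.55 for these genes in that order, of which COL4A1, COL6A1 and COL6A2 then had 0 counts in H69 and depend on the prior count. All 4 passed with and without it.

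Lower in H69M were COL2A1, COL4A3, COL4A4 and COL28A1. COL4A3 had a log2 difference of -3.31 in the cytoplasm (SE 0.849, adjusted p = 0.0102), and -3.48 on polysomes (SE 0.877, adjusted p = 0.00879). COL4A4 had -2.94 (SE 0.639, adjusted p = 0.00387) in the cytoplasm, and on polysomes -1.38 with an adjusted p of 0.0964. COL28A1 had -4.20 and -4.18 (adjusted p = 0.00284 and 0.00383), on counts averaging under 100 a library. COL2A1 had -2.84 (SE 0.912, adjusted p = 0.0359) in the cytoplasm and -1.50 (adjusted p = 0.206) on polysomes.

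Several of these calls rest on single libraries. Without the H69M cytoplasmic control numbered 1 the adjusted p was 0.208 for COL2A1, 0.0918 for COL4A3, 0.0867 for COL7A1 and 0.0568 for COL13A1. Without the H69 cytoplasmic control numbered 2 COL4A3 gave 0.149 and COL2A1 0.116, and without the one numbered 1 COL2A1 gave 0.101, COL7A1 0.0588 and COL6A6 0.0887. COL2A1 also missed the limit without any 1 of the other 6 H69 libraries (0.0594 to 0.0627). COL6A6, higher in H69M, gave 0.117 without the H69M cytoplasmic control numbered 2, and COL15A1 gave 0.0586 and 0.0554 without H69 cytoplasmic control 1 and without control 2. On polysomes COL4A3 gave 0.0581 without H69 polysomal control 2 and 0.0746 without H69M polysomal control 1, COL23A1 gave 0.0563 and 0.0557 without polysomal control 1 of H69 and of H69M, and COL6A6 gave 0.0544 and 0.0539 without H69 polysomal control 1 and 2. COL8A1, higher on polysomes by 2.84 (adjusted p = 0.0385), missed the limit without any 1 of 9 libraries (0.0501 to 0.197), most of all without polysomal control 2 of H69 or of H69M.

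**Figure D2:**
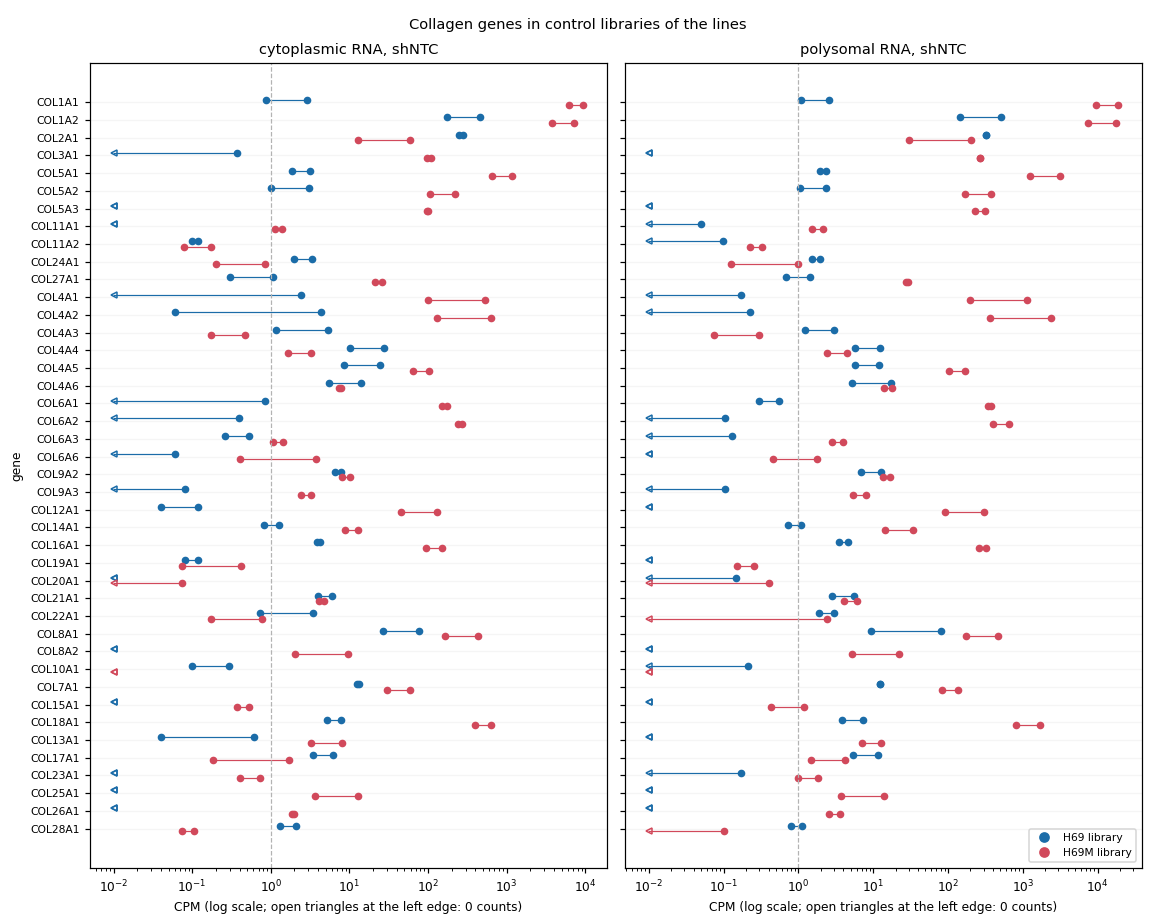
CPM of each collagen gene in the shNTC control libraries of H69 (blue) and H69M (red), on a log axis, in cytoplasmic (left) and polysomal (right) RNA, with a line joining the 2 libraries of a group, open triangles for 0 counts and a dashed line at 1 CPM. Most red points lie to the right of the blue ones (COL1A1 at 6274 and 9404 CPM against 2.93 and 0.880 in the cytoplasm), and COL2A1, COL4A3 and COL28A1 lie the other way.

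The marker lists of the 2 lines moved in the same comparison. The summed level of 8 neuroendocrine markers ran from 1597 to 3548 CPM in the 8 H69 libraries, with none at 0, and from 13.3 to 412 CPM in H69M, where 1 marker was at 0 in each of 2 control libraries. The sum of 8 fibroblast markers ran from 67.3 to 147 CPM in H69, with 1 to 3 at 0, and from 753 to 2607 in H69M. In each fraction 6 of these 8 passed as higher in H69M and 1 as lower, against the shares of all genes given above. The sum of 4 endothelial markers ran from 0.658 to 17.9 CPM in H69 and from 8.455 to 29.3 in H69M. Of these 4, 2 passed as higher in H69M on polysomes and 0 in the cytoplasm. The sum of 6 markers of the adherent non-neuroendocrine state ran from 79.2 to 253 and from 3417 to 5445 CPM, and 4 leukocyte markers together reached at most 1.46 CPM in any library. The tumour type that labels H69M thus had low neuroendocrine markers here. The part these markers have in the collagen differences was not tested.

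Chains that assemble together were compared per kilobase. COL1A1 was 0.00571 to 0.0244 times COL1A2 in the H69 libraries, so H69 had COL1A2 RNA with little COL1A1, whereas type I collagen is usually made of both. In H69M the ratio was 1.91 and 1.51 in cytoplasmic controls, 1.37 and 1.06 with sheIF6, 1.44 and 1.22 in polysomal controls and 0.930 and 0.779 with sheIF6. The sheIF6 libraries lay below the controls in each fraction, at 1.22 ± 0.222 against 1.71 ± 0.282 and 0.854 ± 0.107 against 1.33 ± 0.162 (SD, n = 2). In H69 the order was the reverse, with 0.0178 ± 0.00903 against 0.00653 ± 0.00109 in the cytoplasm and 0.0197 ± 0.00667 against 0.00706 ± 0.00191 on polysomes, and each sheIF6 library above both controls. With 2 libraries a group these orders are descriptions and have no test.

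The COL4A1 to COL4A2 ratio stayed between 0.605 and 1.09 in H69M, although each gene moved several-fold between replicates. COL6A1 to COL6A2 stayed between 0.484 and 0.873. COL5A1 to COL5A2 was 0.674 to 1.27 in H69 and 1.38 to 5.60 in H69M, where it was 3.87 ± 0.363 in cytoplasmic controls against 2.05 ± 0.942 with sheIF6, and 5.29 ± 0.441 against 2.75 ± 1.26 on polysomes. COL4A3 to COL4A4 was 0.128 to 0.327 in H69. COL4A5 to COL4A6 was 0.541 to 1.66 in H69 and 4.47 to 10.8 in H69M, with no overlap between the lines.

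**Figure D3:**
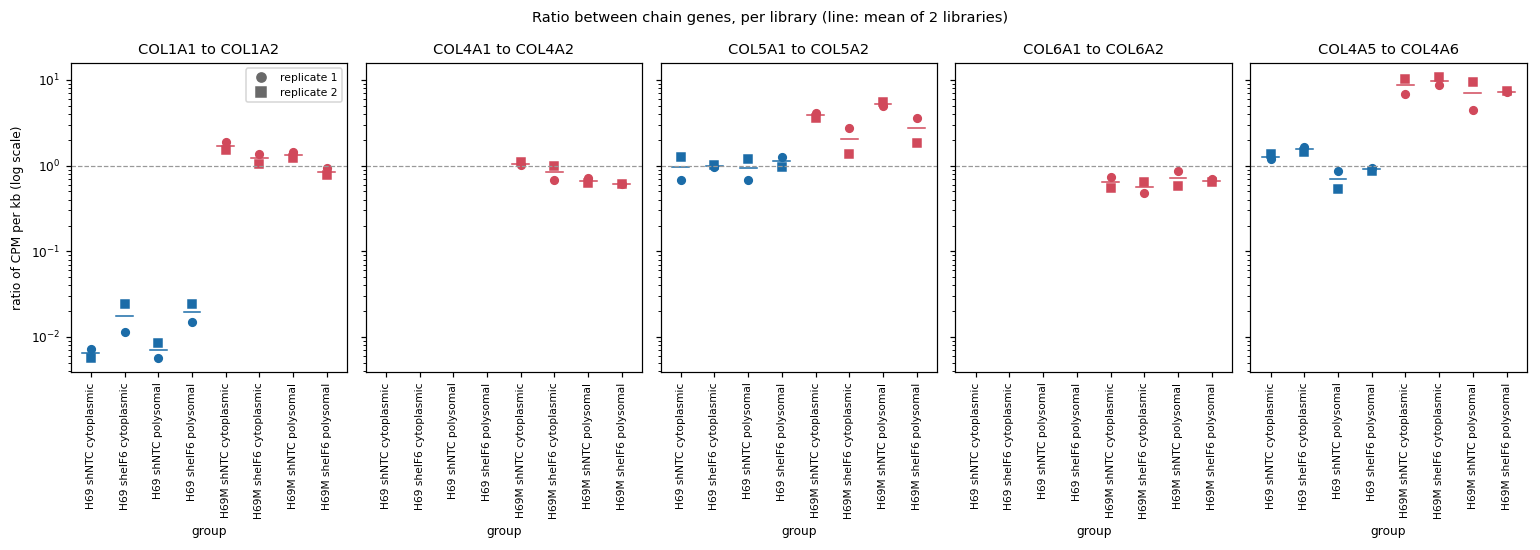
Ratio of partner collagen chains per kilobase of exon in each library, on a log scale, by group, with circles for replicate 1, squares for replicate 2 and a short line for their mean. COL1A1 to COL1A2 lies at 0.0244 or below in H69 and at 0.779 or above in H69M, where the sheIF6 points sit under the controls of the same fraction.

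Collagen chains need a set of enzymes and chaperones before they leave the cell, and most of these differed between the lines too. Of 14 genes for collagen hydroxylation and glycosylation 12 were higher in H69M in the cytoplasm and 13 on polysomes, with none lower. Of 14 for folding and secretion 7 and 7 were higher, and of 13 for procollagen processing and cross-linking 7 and 8 were higher and 1 and 3 lower. These lists were set with earlier results of these data known. Their backgrounds are the shares of all genes given above.

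P3H2, a prolyl 3-hydroxylase, went from 0.0595 ± 0.0289 CPM in H69 cytoplasmic controls to 189 ± 55.9 in H69M (log2 11.57, SE 0.551, edgeR adjusted p = 3.85e-07). The lysyl hydroxylase PLOD1 went from 27.7 to 182 CPM (log2 2.72), the prolyl 4-hydroxylase subunit P4HA2 from 16.3 to 106 (2.69) and P3H1 from 22.4 to 129 (2.53). SERPINH1, the collagen chaperone of the endoplasmic reticulum, went from 10.6 ± 5.98 to 594 ± 167 CPM (log2 5.81, SE 0.479, adjusted p = 4.58e-06). SPARC, a collagen-binding matrix protein, went from 4.35 to 2642 CPM (9.24), the collagen transcription factor CREB3L1 from 0.0595 to 6.75 (6.77) and the prolyl isomerase FKBP10 from 53.6 to 299 (2.48). Of the cross-linking lysyl oxidases, LOXL2 went from 3.90 to 379 CPM (6.60), LOXL1 from 1.61 to 124 (6.27) and LOXL4 from 3.09 to 54.8 (4.15). ADAMTS14, a procollagen peptidase, was lower in H69M, with 30.3 against 2.48 CPM (log2 -3.61, SE 0.802, adjusted p = 0.00499).

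Collagen receptors were higher as a group: all 8 tested of the 10 listed passed in both fractions, where 16.2% and 18.4% of all genes were higher. MRC2, an uptake receptor for collagen, went from 0.401 to 488 CPM (log2 10.23, SE 1.06, edgeR adjusted p = 3.36e-05). The integrin chains ITGA11 and ITGA1 differed by 9.23 and 8.64, and the collagen-binding kinase DDR2 by 6.67, from 2.81 to 287 CPM. Of 8 tested collagen-degrading proteases and inhibitors, 3 passed in the cytoplasm and 4 on polysomes, all higher in H69M, against the same shares of all genes. In the cytoplasm they were the inhibitors TIMP1 (5.33 to 82.7 CPM, log2 3.96) and TIMP2 (64.0 to 909 CPM, log2 3.83) and the membrane protease MMP14 (2.53 to 20.2 CPM, log2 2.99, adjusted p = 0.0224). MMP14 missed the limit without the H69 cytoplasmic control numbered 2 (0.0919) or the H69M one numbered 1 (0.120).

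A second comparison sets polysomal against cytoplasmic RNA in control cells, which shows how much of a message sits on polysomes relative to all messages. In H69M 2 of 41 collagens were higher on polysomes and 0 lower by edgeR, against 2.16% and 2.54% of all genes. They were COL5A3, at 98.7 ± 3.13 CPM in the cytoplasm and 269.8 ± 59.5 on polysomes (log2 1.45, SE 0.231, adjusted p = 0.0146), and COL16A1, at 123 ± 40.6 and 294 ± 46.7 (1.26, SE 0.268, adjusted p = 0.0224). Both libraries on polysomes lay above both in the cytoplasm for each gene. The call on COL5A3 was lost without H69M cytoplasmic control 1 (0.0766) or 2 (0.0866) or polysomal control 2 (0.0759), and that on COL16A1 without cytoplasmic control 2 (0.153) or polysomal control 1 (0.0923) or 2 (0.0586). At an unadjusted p under 0.05 there were 7 of 41 collagens, against 20.3% of genes, and DESeq2 called 5, all higher, against 16.6% in either direction. These shares lie near the background.

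Same-numbered libraries of a line deviated together from their group means, so a fit with the replicate number of each line as a block was run as well. The block is 1 term for each line and does not pair the fractions of a hairpin. In the H69M controls the deviations of the fractions correlated at 0.578. Calls on the same gene in both fractions may therefore not be independent. With the block 10 H69M collagens were higher on polysomes and 0 lower, against 6.08% and 5.02% of genes. The added ones were COL1A2 (1.17, adjusted p = 0.0257), COL2A1 (1.52, 0.0100), COL3A1 (1.38, 0.0136), COL5A1 (1.21, 0.0240), COL5A2 (0.73, 0.0364), COL7A1 (1.33, 0.0205), COL17A1 (1.82, 0.0408) and COL18A1 (1.25, 0.0345), in log2 units. The median of the 41 was 1.08 in H69M and that of all genes 0.

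In H69 the same comparison gave 0 collagens higher and 1 lower, against 6.63% and 5.2% of genes. The 1 was COL13A1, with 31 and 2 counts in the cytoplasmic controls and 0 in both polysomal ones (log2 -6.93, SE 1.95, adjusted p = 0.0475). It missed the limit without cytoplasmic control 1 (0.290), and without any 1 of 10 other libraries (0.0530 to 0.166). With the block 0 were higher and 2 lower, COL13A1 and COL3A1 (adjusted p = 0.0155), against 9.87% and 9.01%. COL3A1 had 19 counts in cytoplasmic control 1 and 0 in the other 3 H69 controls. In that same library 44 genes otherwise found in H69M reached a median 0.201% of what H69M had, with a median of 0% in the other 3 controls, and the part of this signal in the COL3A1, COL4A1, COL4A2 and COL13A1 counts was not tested. At an unadjusted p under 0.05 there were 5 of 41 collagens, against 27.2% of genes, and DESeq2 called 3, against 20%.

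The question of the study was what EIF6 knockdown does to messages in each fraction. In H69 no collagen passed in either fraction. In cytoplasmic RNA edgeR called 0 of 41, against 0% of all genes. At an unadjusted p under 0.05 there were 7 (COL13A1, COL15A1, COL16A1, COL18A1, COL3A1, COL4A1 and COL4A2), against 3.01%. Of these, COL3A1 and COL4A1 had counts here only in cytoplasmic control 1, and COL4A2 and COL13A1 had nearly all of theirs there. COL15A1 had 8 counts, all in 1 sheIF6 library. Control 1 is the library with a low level of H69M genes given above, and its part in this number was not tested. DESeq2 called 0, against 0.4%, and the block fit 0, against 0.00433%. In polysomal RNA edgeR again called 0, against 0.00433%, with COL14A1 alone at an unadjusted p under 0.05 (4.14% of genes). DESeq2 called 0 (0.422%), as did the block fit (0.108%).

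The collagens that H69 does express gave these values. COL2A1 was at 246 and 276 CPM in cytoplasmic controls and 566 and 477 with sheIF6, and its sheIF6 libraries lay above the controls in both fractions. Its fitted log2 changes were 1.00 (SE 0.858) and 1.13 (SE 0.861), each with an adjusted p of 1. These SEs come from a spread shared by the groups of both lines, so they are not the scatter of H69 alone. Replicate 2 of COL2A1 was 0.823 to 1.12 times replicate 1 in H69, and 2.29 to 6.68 times in H69M. COL2A1 passed in 0 of 24 other settings in either H69 fraction, the fit of H69 alone among them. COL1A2 was lower in the mean, 152 ± 40.0 against 314 ± 199 CPM in the cytoplasm, with log2 changes of -1.05 (SE 0.666) and -0.96 (SE 0.665) and an adjusted p of 1. Its sheIF6 and control libraries overlapped in both fractions, and without polysomal control 1 the polysomal change was 0.20. COL8A1 changed by -0.31 (SE 0.881) and -0.16 (SE 0.882), less than its spread.

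In H69M COL26A1 rose with sheIF6 in both fractions. The gene lies on chromosome 7 at 101362820 to 101559024 (GRCh38, GENCODE v29). Counts were 80 and 70 in cytoplasmic controls and 1713 and 1072 with sheIF6, or 2.00 and 1.85 against 20.4 and 16.8 CPM. On polysomes they were 101 and 142 against 1253 and 1361 counts, or 2.55 and 3.58 against 29.1 and 30.4 CPM. The groups did not overlap, and the 2 replicates of each lay close together. Such separation was common in H69M, so by itself it does not set a gene apart. Of the 44 collagens, 11 lay wholly higher with sheIF6 and 14 wholly lower in the cytoplasm, and 12 and 12 on polysomes. The share over all genes was not counted. The log2 change was 3.27 (SE 0.397, edgeR adjusted p = 0.0234) in the cytoplasm and 3.28 (SE 0.395, adjusted p = 0.0410) on polysomes, and with the block the adjusted p was 0.00676 and 0.00991. COL26A1 had 0 counts in all 8 H69 libraries, which allows up to 0.0296 to 0.0383 CPM a group by counting error alone, so no change could be measured there.

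COL26A1 was 1 of 41 collagens higher in cytoplasmic RNA and 1 of 41 on polysomes, against 0.0909% and 0.0303% of genes, and 0 were lower, against 0.0649% and 0.0346%. At an unadjusted p under 0.05 there were 13 and 10 collagens in the 2 fractions, in either direction, against 11% and 8.15% of genes. The cytoplasmic call was lost without H69M cytoplasmic control 1 (0.163) or 2 (0.132), cytoplasmic sheIF6 1 (0.199) or polysomal sheIF6 1 (0.0710) or 2 (0.0709). The polysomal call was lost without H69M polysomal control 1 (0.175) or 2 (0.0769), polysomal sheIF6 1 (0.227) or 2 (0.163), cytoplasmic sheIF6 1 (0.0931) or 2 (0.0921), or H69 cytoplasmic sheIF6 1 (0.0780) or 2 (0.0788) or polysomal sheIF6 1 (0.0503). Across the libraries left out in turn the log2 change stayed between 3.13 and 3.42 in the cytoplasm and between 3.07 and 3.54 on polysomes.

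**Figure D4:**
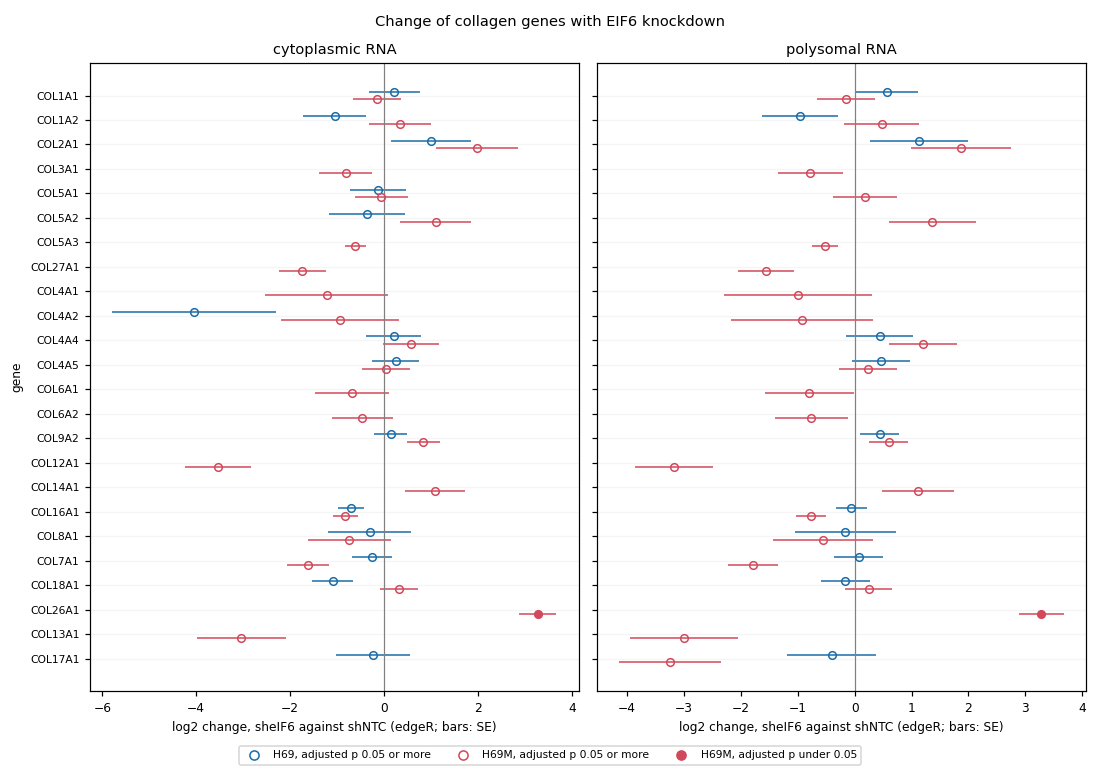
Fitted log2 change with sheIF6 against shNTC for H69 (blue) and H69M (red), in cytoplasmic (left) and polysomal (right) RNA, with bars for the SE. The collagens are those with a mean of 20 CPM or more in a group, with COL13A1 and COL17A1 added. Of these, a change is shown where the mean count of a group was 100 or more. Other collagens that reach 100 counts, such as COL23A1 and COL9A3, are left out. COL26A1 in H69M, at 3.27 and 3.28, has the only filled points (adjusted p under 0.05), and COL1A1 and COL5A1 lie near 0.

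With the block 3 H69M collagens were higher and 3 lower in cytoplasmic RNA, against 0.558% and 0.602% of genes, and 3 were higher and 4 lower on polysomes, against 0.364% and 0.515%. The higher ones were COL26A1, COL2A1 and COL5A2 in both fractions. The lower ones were COL12A1, COL13A1 and COL7A1 in both, and COL17A1 on polysomes. DESeq2, without a block, called 4 in the cytoplasm, against 2.57% of genes, and 4 on polysomes, against 1.69%. It called COL26A1 higher in both, COL12A1 and COL7A1 lower in both, COL27A1 lower in the cytoplasm (log2 -1.74, adjusted p = 0.0219) and COL17A1 lower on polysomes (-3.24, adjusted p = 0.0114). In the fit without a block the adjusted p of COL27A1 was 0.245 and with it 0.0982.

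COL2A1 held 13.0 and 59.7 CPM in cytoplasmic controls and 87.2 and 199 with sheIF6, and 30.1 and 201 against 185 and 654 CPM on polysomes. Within each replicate number the sheIF6 library was the higher, while on polysomes control 2 lay above sheIF6 1. The log2 changes were 1.98 (SE 0.883, adjusted p = 0.446) and 1.86 (SE 0.878, adjusted p = 0.630) without the block, and 2.29 (adjusted p = 0.00675) and 2.11 (adjusted p = 0.0104) with it. Without the 4 H69M libraries numbered 2 they were 2.75 (adjusted p = 0.00896) and 2.62 (adjusted p = 0.0118), but each arm is then 1 library assumed to vary like the H69 groups, so these p-values carry no H69M replicate spread. COL2A1 lies on chromosome 12 at 47972965 to 48004554.

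COL5A2, on chromosome 2 at 189031896 to 189225312, held 107 and 218 CPM in cytoplasmic controls and 165 and 528 with sheIF6. On polysomes it held 169.6 and 376 against 413 and 994 CPM, where both sheIF6 libraries were the higher. The log2 change was 1.10 (SE 0.755, adjusted p = 0.630) and 1.37 (SE 0.760, adjusted p = 0.692), and with the block 0.96 (adjusted p = 0.0415) and 1.34 (adjusted p = 0.0111). The libraries numbered 2 also held more of the 8 neuroendocrine markers: 13.3 and 52.3 CPM summed in cytoplasmic controls, 25.7 and 58.8 with sheIF6, 31.5 and 412 in polysomal controls and 53.5 and 252 with sheIF6. The part of this difference between replicates in the COL2A1 and COL5A2 values was not tested.

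COL12A1, on chromosome 6 at 75084326 to 75206051, held 45.6 and 131 CPM in cytoplasmic controls and 4.87 and 10.3 with sheIF6, and 90.4 and 304 against 18.7 and 24.7 CPM on polysomes. The groups did not overlap in either fraction, which held for many collagens, as given above. The log2 change was -3.54 (SE 0.696, adjusted p = 0.0992) and -3.18 (SE 0.684, adjusted p = 0.173), with the block -3.45 (adjusted p = 0.00418) and -2.92 (adjusted p = 0.00991), and by DESeq2 -3.56 (adjusted p = 6.71e-05) and -3.18 (adjusted p = 0.00110). Without H69M polysomal control 2 the cytoplasmic change passed in the fit without a block (adjusted p = 0.0444).

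COL7A1, on chromosome 3 at 48564073 to 48595267, held 58.1 and 30.4 CPM in cytoplasmic controls and 14.6 and 14.2 with sheIF6. On polysomes it held 136 and 83.3 against 35.8 and 28.0 CPM, and no sheIF6 library reached a control. The log2 changes were -1.62 (SE 0.439, adjusted p = 0.214) and -1.78 (SE 0.441, adjusted p = 0.209), and with the block -1.54 (adjusted p = 0.0401) and -1.75 (adjusted p = 0.0298). DESeq2 gave adjusted p values of 0.0228 and 0.0115.

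COL13A1 and COL17A1 are low-count transmembrane collagens with the same order of groups. COL13A1, on chromosome 10 at 69801867 to 69964275, held 8.10 and 3.27 CPM in cytoplasmic controls and 0.799 and 0.579 with sheIF6, and 12.7 and 7.18 against 1.63 and 0.848 on polysomes. Its log2 changes were -3.04 (SE 0.953, adjusted p = 0.313) and -3.00 (SE 0.951, adjusted p = 0.421), with the block -2.93 (adjusted p = 0.0244) and -3.02 (adjusted p = 0.0294). COL17A1, on chromosome 10 at 104031286 to 104085957, held 4.21 and 1.46 CPM in polysomal controls and 0.395 and 0.201 with sheIF6. On polysomes its log2 change was -3.24 (SE 0.895, adjusted p = 0.269), with the block -3.16 (adjusted p = 0.0278). In the cytoplasm it held 1.72 and 0.185 against 0.179 and 0.125 CPM, with 69 and 7 against 15 and 8 counts, and did not pass (-2.62, block adjusted p = 0.0934). COL23A1, of the same class, went the other way with sheIF6. It went from 0.569 ± 0.239 to 2.84 ± 0.291 CPM in the cytoplasm and from 1.40 ± 0.590 to 5.89 ± 1.42 on polysomes (SD, n = 2). COL25A1 went from 8.18 ± 6.37 to 2.43 ± 0.694 and from 8.82 ± 7.15 to 3.32 ± 1.61 CPM. Neither passed, with or without the block.

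**Figure D5:**
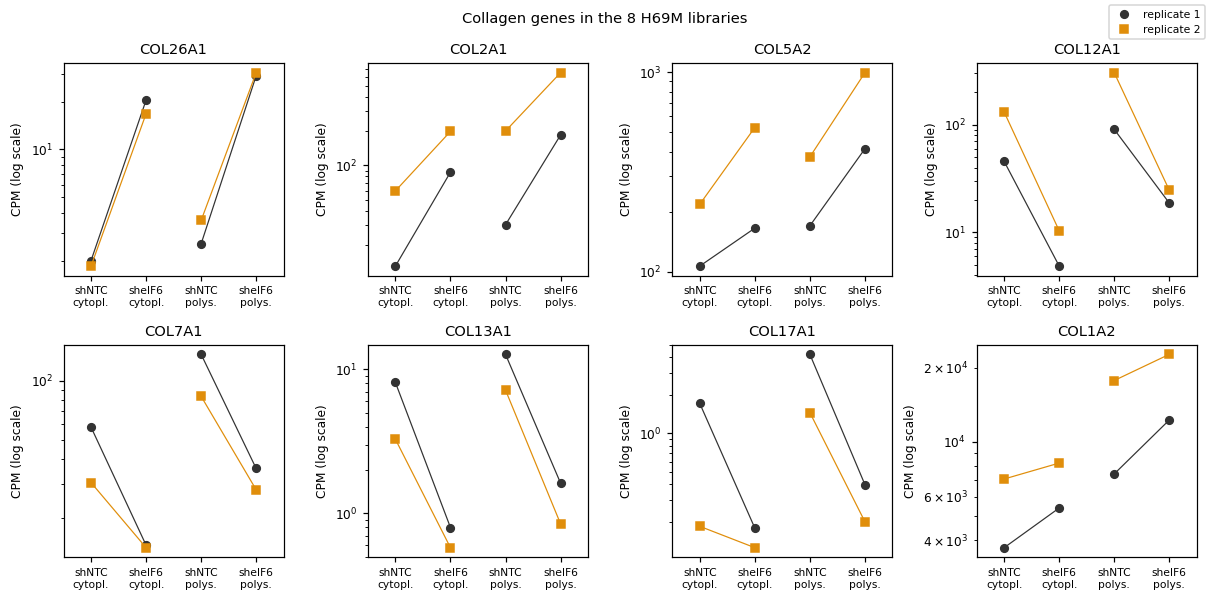
CPM of 8 collagen genes in the 8 H69M libraries, each on its own log scale, with lines joining libraries of the same replicate number from shNTC to sheIF6 in each fraction. COL26A1, COL2A1 and COL5A2 go up and COL12A1, COL7A1, COL13A1 and COL17A1 go down for both numbers in both fractions, while the replicates of COL2A1 stand 2.29 to 6.68 times apart.

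The abundant H69M chains did not pass. COL1A1, on chromosome 17 at 50183289 to 50201632, changed by -0.14 (SE 0.510, edgeR adjusted p = 0.968) in the cytoplasm and -0.15 (SE 0.510, adjusted p = 0.988) on polysomes. COL1A2, on chromosome 7 at 94394561 to 94431232, changed by 0.33 (SE 0.659, adjusted p = 0.916) and 0.47 (SE 0.660, adjusted p = 0.924). COL4A1 had -1.22 and -0.99 and COL4A2 -0.94 and -0.93, with SEs of 1.25 to 1.31 and adjusted p values of 0.790 to 0.921. The sign of these 4 genes turned in this fit when single libraries were left out. Within the same replicate number COL1A2 was higher with sheIF6 in all 4 H69M pairs of libraries, and with the block its change was 0.38 (adjusted p = 0.552) and 0.53 (adjusted p = 0.499). With the block COL1A1, COL4A1 and COL4A2 had adjusted p values of 0.668 to 0.958.

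Among the processing genes P3H3, a prolyl 3-hydroxylase family member, rose in H69M cytoplasmic RNA, from 38.6 and 54.4 CPM to 160.4 and 114 (log2 1.56, SE 0.230, edgeR adjusted p = 0.0203). It was the only 1 of 41 processing genes to pass in a knockdown comparison without the block, in any line or fraction. Of all genes, 0.0909% passed as higher and 0.0649% as lower in H69M cytoplasmic RNA. In the other knockdown comparisons 0% to 0.0346% passed in a direction. On polysomes P3H3 had 1.04 (adjusted p = 0.164). Its cytoplasmic call was lost without cytoplasmic control 1 (0.179) or cytoplasmic sheIF6 1 (0.199). PCOLCE2, which enhances procollagen cleavage, held 5.65 and 7.04 against 2.36 and 2.61 CPM in the cytoplasm and 8.07 and 9.52 against 2.90 and 3.32 on polysomes. It passed with the block alone (-1.35 and -1.50 without it, block adjusted p = 0.0278 and 0.0240) and by DESeq2 (0.0418 and 0.0254). No collagen receptor or protease gene passed in a knockdown comparison by edgeR, with or without the block. At most 0.602% of all genes passed there in a direction.

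Whether the change with sheIF6 differed between the lines was tested as an interaction. In cytoplasmic RNA edgeR called 0 of 41 collagens, against 0.0303% of genes, and the block fit 0, against 0.139%. At an unadjusted p under 0.05 there were 7, against 4.93%, and DESeq2 called 0, against 0.536%. In polysomal RNA edgeR called 0 (0.00433% of genes) and the block fit 0 (0.16%), with 7 at an unadjusted p under 0.05 (5.09%). DESeq2 called 1 there (0.551% of genes), COL12A1, with -7.75 and an adjusted p of 0.00716, on 6 or fewer counts in each H69 polysomal library. For COL7A1 the difference was -1.36 (SE 0.611, edgeR adjusted p = 1) in the cytoplasm and -1.85 (SE 0.613, adjusted p = 0.722) on polysomes. So a call in H69M and none in H69 was not shown to be a difference between the lines.

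A last comparison asks whether sheIF6 changed the polysomal RNA of a message relative to its cytoplasmic RNA, as the change on polysomes minus that in the cytoplasm. In H69 edgeR called 0 collagens, as did the block fit, both against 0% of genes. COL3A1 and COL9A3 were at an unadjusted p under 0.05 (1.66% of genes), and DESeq2 called 0 (0.013%). In H69M edgeR, the block fit and DESeq2 called 0, against 0%, 0% and 0.00433%, and 0 were at an unadjusted p under 0.05 (1.7% of genes). For COL26A1 the H69M difference was 0.01 (SE 0.584), for COL2A1 -0.12 (SE 1.20), for COL1A2 0.14 (SE 0.932) and for COL12A1 0.36 (SE 0.891). The changes of COL26A1 on polysomes and in the cytoplasm were thus of similar size, with an SE of that difference over 0.5 on the log2 scale.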

How the data were processed

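The deposited table holds raw counts per gene, one column a library; per the submitters' processing notes the reads were handled with STAR and HTSeq on GRCh38 (hg38), and versions and strand setting are not given in the sources used here. Libraries were grouped by line, hairpin and fraction from the labels. Genes were filtered with filterByExpr (minimum count 10), scaled by TMM and tested with edgeR 4.0.16 (quasi-likelihood, robust) in R 4.3.3, in 1 fit of 8 group means with 8 residual degrees of freedom. P-values were adjusted by Benjamini-Hochberg over 23100 genes, with a limit of 0.05. The SE of a log2 value is its size over the square root of the F statistic, and not a separately estimated error. CPM are counts over TMM-scaled library sizes. DESeq2 1.42.0, other scalings and filters, a single line, and libraries left out in turn were alternatives.

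Replicate correlations of log CPM were 0.951 to 0.982, and replicates differed by more than sampling noise. The pairing comes from the data: deviations of same-numbered libraries correlated at 0.168 to 0.28 within H69, 0.172 to 0.578 within H69M and -0.107 to 0.0457 between lines. The replicate block within each line was therefore fitted too, except for the difference between lines, because the blocks are nested in the lines. Scripts were tested on simulated data. The members and lists were chosen with earlier results of these data known. Named collagens were those that passed in a knockdown comparison with or without the block, those at 20 CPM or more in a group, and up to 8 a direction between lines or fractions with the largest change at a mean count of 100 or more; up to 4 genes were named from each list. Exon lengths and positions come from GENCODE v29, and promoters from RefSeq. Depth limits the low collagens: 3 counts over a group are taken as the floor, a limit for counting error only.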

Additional observations from a re-analysis of the deposited data

How the results depend on the processing

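Counts of collagens passing moved as follows. With the replicate block, H69M knockdown gave 3 higher and 3 lower in the cytoplasm and 3 higher and 4 lower on polysomes, and polysomal against cytoplasmic RNA gave 2 lower in H69 and 10 higher in H69M; the block changed no other count of collagens. The block was not run for the difference between lines, whose replicate numbers are nested in them. With DESeq2, H69M knockdown gave 3 lower in each fraction, the polysomal difference in knockdown change between lines 1 lower, and polysomal against cytoplasmic RNA 1 higher and 2 lower in H69 and 5 higher in H69M. Scaling by total library size gave 0 higher for H69M polysomal knockdown (COL26A1 adjusted p = 0.0544) and 1 higher on polysomes in H69M. Between fractions this scaling shifted the all-gene median by -0.343 (H69) and -0.259 (H69M), and between cytoplasmic controls by -0.135. Fitting 1 line alone gave 0 higher for H69M polysomal knockdown (COL26A1 0.0644), and 0 for polysomal against cytoplasmic RNA, lower in H69 and higher in H69M; P3H3 then had an adjusted p of 0.171. With no low-count filter COL2A1 missed the limit between cytoplasmic controls (0.118), as did COL8A1 between polysomal ones (0.118) and MMP14 (0.0661).

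Libraries left out in turn gave 0 to 1 for H69 cytoplasmic knockdown, lower (COL3A1, -7.12, adjusted p = 0.0255, without cytoplasmic control 2), 0 to 1 for H69M cytoplasmic knockdown in each direction, 0 to 1 for H69M polysomal knockdown, higher, 2 to 6 lower between lines in the cytoplasm (2 without H69 cytoplasmic control 2, 6 without H69M polysomal control 1) and 1 to 4 on polysomes (1 without H69 polysomal control 2 or H69M polysomal control 1, 4 without H69M polysomal control 2), 0 to 2 for polysomal against cytoplasmic RNA, lower in H69, and 0 to 3 higher in H69M. Leaving out the 4 H69M libraries numbered 2, chosen after seeing the data, leaves 1 library in each H69M group, assumed to vary like the H69 groups, so its p-values hold no H69M replicate spread; 5 were lower between lines on polysomes and 0 passed between fractions, lower in H69 or higher in H69M; COL26A1 gave adjusted p values of 0.107 and 0.174. Between lines COL13A1 (0.0631), COL15A1 (0.0917), COL23A1 (0.0671) and COL6A6 (0.228) then missed the limit in the cytoplasm, and COL15A1 (0.106), COL23A1 (0.0668), COL6A6 (0.0905) and COL8A1 (0.207) on polysomes.

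Signs turned for 10 fitted changes, none past the limit in the fit without a block. In H69M cytoplasmic knockdown, libraries left out gave -0.40 to 0.19 for COL1A1, -0.051 to 0.87 for COL1A2, -2.10 to 0.43 for COL4A1 and -1.66 to 0.63 for COL4A2. On polysomes they gave -0.55 to 0.43 for COL1A1, with 0.13 without sheIF6 1, -0.040 to 1.23 for COL1A2, with -0.0053 without control 1, -1.74 to 0.75 for COL4A1 and -1.71 to 1.00 for COL4A2. Without the libraries numbered 2 COL1A1 gave 0.067 and 0.084, COL4A2 0.11 and 0.54, and COL4A1 0.31 on polysomes. COL1A2 in H69 polysomal knockdown ran from -1.59 to 0.20, and COL2A1 in H69M polysomal against cytoplasmic RNA from -0.27 to 3.15. The cause was not tested.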
